A study of Mus musculus with 5 samples.

Results

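The Hoxa cluster is 1 of the 4 Hox clusters of the mouse and lies on chromosome 6. The region studied here starts at base 52110000 of that chromosome in build mm9, spans 102 kb and runs from Hoxa2 at the anterior end to Hoxa13 at the posterior end. Its members are the 10 genes Hoxa2, Hoxa3, Hoxa4, Hoxa5, Hoxa6, Hoxa7, Hoxa9, Hoxa10, Hoxa11 and Hoxa13. The measured units were CpG dinucleotides inside these coordinates that do not lie in CCGG, the recognition site of the enzyme MspI. These CpGs were taken by position, but the members, lists and tests were chosen with earlier results of these data known. Across the 5 libraries, 577 of the 598336 CpGs of this kind on the autosomes and the X chromosome fell in the cluster.

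Reduced representation bisulfite sequencing measured DNA methylation in mouse embryonic stem (ES) cells, with 5 libraries, 1 for each genotype: WT, Fbxl10 T/T and the Polycomb mutants Ring1B -/-, Eed -/- and Ezh2 -/-. In this assay MspI enriches CpG-rich DNA, and bisulfite turns unmethylated cytosine into a base that is read as T, so the methylation level is the share of reads that still show C. WT and Fbxl10 T/T cells carried the strain label C57BL/6J, were grown in serum and LIF on feeder fibroblasts that were depleted before use, and were taken at passage 17. Ring1B -/-, Eed -/- and Ezh2 -/- cells were grown in serum and LIF, and their labels give neither a strain nor a passage. The labels do not say what the T allele is or how many clones stand behind a library. With these labels, strain, culture and genotype cannot be told apart between the Polycomb mutants and the other libraries. No expression values were used here, so the cell type and the targeted genes were not checked.

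Hox genes encode homeodomain transcription factors that give cells their position along the body axis, and their order on the chromosome follows the order in which they act from head to tail. In ES cells the Hox clusters are silent and are a classical target of the Polycomb complexes: Ring1B ubiquitinates histone H2A as the catalytic part of complex 1, and in complex 2 Ezh2 methylates histone H3 with Eed as a core subunit. FBXL10, also named KDM2B, binds unmethylated CpG islands through its CXXC zinc finger and belongs to a variant form of complex 1. CpG islands at such developmental genes are normally free of DNA methylation.

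The 3 upstream sequences that follow are examples of high and low levels before gene starts within the cluster. Each is the 250 bases before a RefSeq transcript start in build GRCm38.p6, printed 5′ to 3′ on the strand of the gene, and the capitals mark the CpGs measured with at least 10 reads in both WT and Fbxl10 T/T. Hoxa6 (chr6:52208673-52208922, minus strand), an axial patterning gene of the middle of the cluster, held 9 measured CpGs that together stood at 3.18% of 314 reads in WT and 57.3% of 150 reads in Fbxl10 T/T. Hoxa13 (chr6:52260881-52261130, minus strand), the most posterior gene, which patterns the digits and the genital tract, held 6 measured CpGs at 0.179% of 560 reads in WT and 0 of 395 reads in Fbxl10 T/T, a count of 0 that allows a level of up to 0.759% (3 counts of the total). Hoxa11os (chr6:52244993-52245242, plus strand), the antisense transcript of Hoxa11, held 11 measured CpGs at 3.15% of 572 reads in WT and 70.6% of 343 reads in Fbxl10 T/T. All 3 were nearly free of methylation in WT, and the Hoxa6 and Hoxa11os stretches were methylated in most reads in Fbxl10 T/T while the Hoxa13 stretch was not. The measured CpGs lay at unlike distances from the starts (minus means before a start). They were at -191 to -135 bases for Hoxa6, at -70 bases or nearer for Hoxa13, and partly at -87 bases or nearer for Hoxa11os. The part of distance in these differences was not tested.
Hoxa6: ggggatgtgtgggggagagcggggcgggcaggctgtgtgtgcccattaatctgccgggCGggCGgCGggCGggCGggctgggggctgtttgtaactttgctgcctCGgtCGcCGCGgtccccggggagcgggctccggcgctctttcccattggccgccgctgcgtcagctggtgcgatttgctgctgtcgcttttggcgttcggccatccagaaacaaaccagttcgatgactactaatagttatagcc
Hoxa13: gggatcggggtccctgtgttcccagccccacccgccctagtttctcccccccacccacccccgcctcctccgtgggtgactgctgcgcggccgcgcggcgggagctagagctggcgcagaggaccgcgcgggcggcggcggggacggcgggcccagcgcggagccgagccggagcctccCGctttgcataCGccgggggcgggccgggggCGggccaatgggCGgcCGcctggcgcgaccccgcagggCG
Hoxa11os: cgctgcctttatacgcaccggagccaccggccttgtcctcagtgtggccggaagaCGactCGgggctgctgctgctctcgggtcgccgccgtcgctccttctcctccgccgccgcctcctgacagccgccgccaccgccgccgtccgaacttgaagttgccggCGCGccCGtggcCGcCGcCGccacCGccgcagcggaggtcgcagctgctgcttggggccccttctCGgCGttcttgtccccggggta

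Between gene starts, 4 shorter stretches are printed as examples, a low pair and a high pair chosen after their levels were seen. The contrast between the pairs therefore follows from the choice. They are given on the plus strand of mm9, as spelled by the deposited sequence contexts. Here every CpG is in capitals, measured or not, and the levels rest on the 4 or 5 CpGs of each stretch that had at least 10 reads in both libraries. Of the low pair, one near the lncRNA 5730596B20Rik at chr6:52125650-52125696, stood at 2.20% in WT and 2.68% in Fbxl10 T/T. It lies among CpGs at -1553 to -1380 bases from the start of that lncRNA. The start itself was not low: CpGs 358 to 429 bases after it stood at 3.99% in WT and 65.9% in Fbxl10 T/T. The other low stretch, between the starts of 5730596B20Rik and Hoxa5 at chr6:52141937-52141988, stood at 0.140% and 8.24%. Of the high pair, one between the starts of Hoxa9 and Hoxa11 at chr6:52180684-52180725, stood at 5.42% in WT and 84.5% in Fbxl10 T/T. The other, between the starts of Hoxa11 and Hoxa13 at chr6:52203522-52203589, stood at 2.80% and 76.1%. The low stretches held 8 CpGs in 47 bases (4 measured) and 9 in 52 (5 measured), and the high ones 5 in 42 (4 measured) and 11 in 68 (5 measured).
Low, near 5730596B20Rik: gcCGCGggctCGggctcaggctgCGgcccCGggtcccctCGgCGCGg
Low, between 5730596B20Rik and Hoxa5: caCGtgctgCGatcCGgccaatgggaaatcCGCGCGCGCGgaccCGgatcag
High, between Hoxa9 and Hoxa11: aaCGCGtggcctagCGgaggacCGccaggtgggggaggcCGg
High, between Hoxa11 and Hoxa13: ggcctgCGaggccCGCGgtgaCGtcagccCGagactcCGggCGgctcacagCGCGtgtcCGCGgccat

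Depth differed widely between the libraries. The cluster held 545 CpGs outside CCGG with a read in WT and 521 in Fbxl10 T/T, but Ezh2 -/- had 208 of them, Ring1B -/- 241 and Eed -/- 293. Reads at these CpGs totalled 24674 and 17049 in the first pair and 554, 886 and 1281 in the 3 mutants. The median CpG had 42 reads in WT, 28 in Fbxl10 T/T and 2 in each Polycomb mutant. The comparison of Fbxl10 T/T with WT therefore resolved single CpGs, whereas the Polycomb mutants were read only over sums of CpGs. Reads were summed over windows of 1 kb, and a window was tested where it held at least 5 CpGs seen in both libraries and at least 30 reads in each. A window was called higher or lower where Fisher's exact test (two-sided), adjusted by Benjamini-Hochberg over all windows of the genome, gave an adjusted p under 0.05 and the level differed by at least 20 percentage points. With 1 library per genotype there is no replicate check, so each test sets the reads of 1 library against those of another and says nothing of the spread within a genotype. Reads at neighbouring CpGs are often the same molecules, so intervals (95%) cover counting error only and are too narrow.

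Most of the Hoxa windows that could be tested gained methylation in the Fbxl10 T/T library relative to WT. Over the 498 CpGs seen in both libraries, the level was 6.60% of 24600 reads in WT (interval 6.29 to 6.91) and 42.3% of 17024 reads in Fbxl10 T/T (41.6 to 43.0). The difference of 35.7 points had an interval of 34.9 to 36.5 points. Of the 102 windows in the region, 27 could be tested, and 19 of these (70.4%) were higher in Fbxl10 T/T and 0 were lower, by Fisher's exact test with Benjamini-Hochberg adjustment. Among all 20072 windows tested in the genome, 25.5% were called higher and 2.66% lower. The median difference was 52.4 points over the 27 Hoxa windows and 0.306 points over all windows. Across the whole libraries, the level outside CCGG was 13.6% in WT and 21.0% in Fbxl10 T/T.

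**Figure D1:**
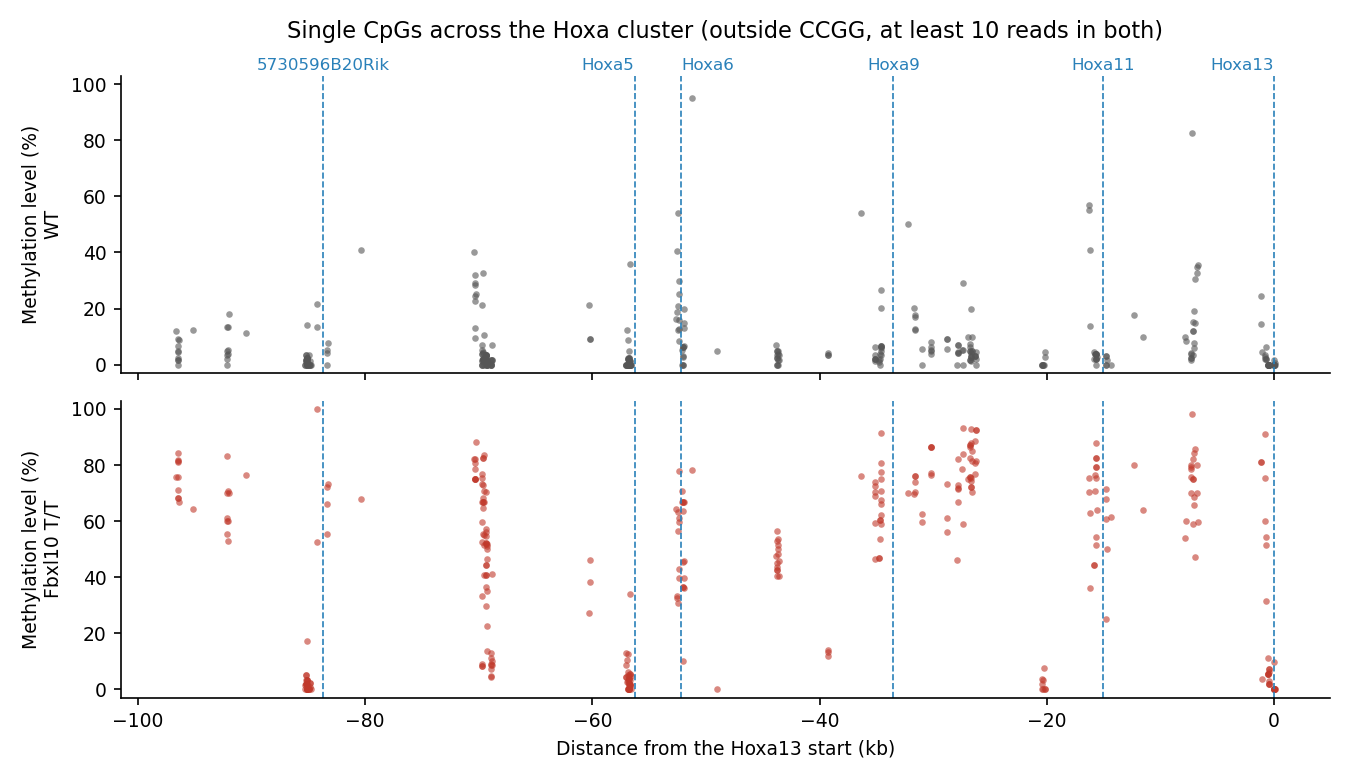
Methylation level (%) of each of the 353 Hoxa CpGs with at least 10 reads in both libraries (1 point per CpG) against the distance from the Hoxa13 start in kb, WT above and Fbxl10 T/T below, with dashed lines at the 6 placed starts. In WT 286 points lie below 10%, and in Fbxl10 T/T 196 points lie at 50% or more while groups beside the Hoxa5 and Hoxa13 starts stay low.

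The 19 higher windows stood at 1.99 to 52.7% in WT (median 6.26%) and at 39.3 to 83.1% in Fbxl10 T/T (median 67.6%), and 16 of them reached 50% or more. Their highest adjusted p was 0.0119 (Fisher's exact test, Benjamini-Hochberg). Among all 5125 windows called higher in the genome, the median level in Fbxl10 T/T was 60.4% and the median difference 49.3 points, against 57.2 points for the Hoxa windows called higher. Of the 27 Hoxa windows, 20 were below 10% in WT, and 13 of these were higher in Fbxl10 T/T. Among all windows below 10% in WT, 21.3% were. The other 8 Hoxa windows divided into 5 within 5 points of WT and 3 that lay 5 to 20 points above it. In the genome 61.1% of windows lay within 5 points.

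**Figure D2:**
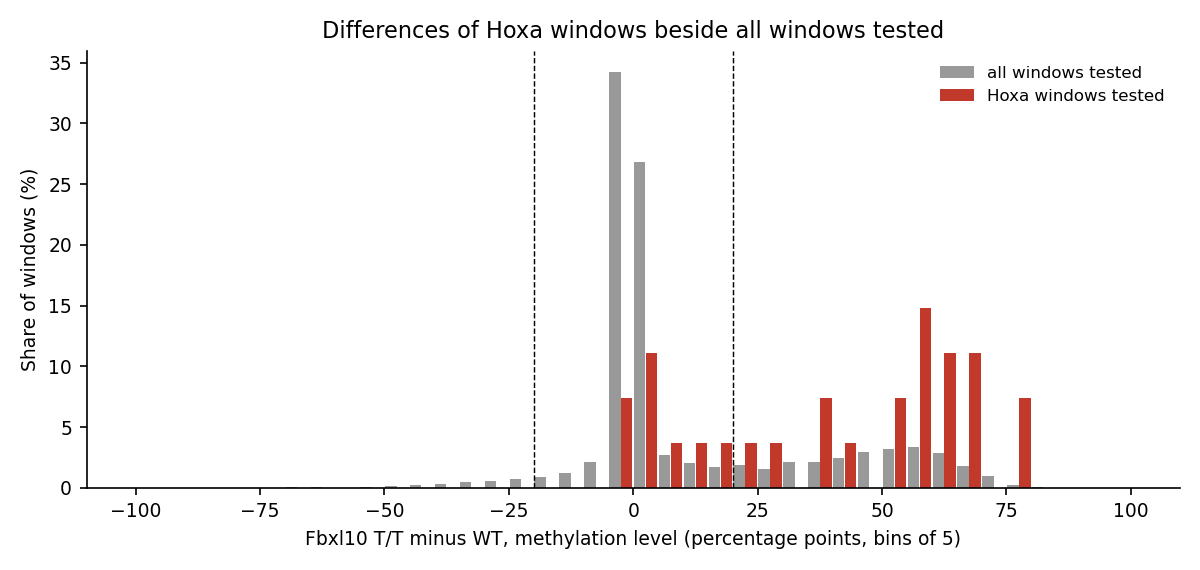
Share of windows (%) by the difference in methylation level, Fbxl10 T/T minus WT, in bins of 5 percentage points, for the 27 Hoxa windows (red) and all 20072 windows tested (grey), with dashed lines at the threshold of 20 points on both sides. The grey bars peak within 5 points of 0, and most red bars lie to the right of the upper line.

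The starts of 5 members could be placed on mm9, by matching the RefSeq promoter sequence to the bases that the tables spell, and 9 of the 10 members had such a sequence. The starts of Hoxa2, Hoxa3, Hoxa4, Hoxa7 and Hoxa10 were not placed, so their CpGs are described by the interval between placed starts in which they lie. From the 5 placed starts, a contrast appeared between Hoxa6, Hoxa9 and Hoxa11, which lay in or beside higher windows, and Hoxa5 and Hoxa13, which did not. The CpGs read lay at different distances from these starts, before some of them and only inside the gene for others.

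Hoxa5, which is needed for development of the respiratory tract, kept a low level in both libraries in the windows at its start and inside the gene. Its window, chr6:52154001-52155000 with 34 CpGs, stood at 3.26% in WT (1624 reads) and 4.43% in Fbxl10 T/T (1445 reads). The difference of 1.17 points (interval -0.197 to 2.57) did not pass the test (adjusted p = 0.1996, Fisher's exact test, Benjamini-Hochberg). The next window into the gene, chr6:52153001-52154000, stood at 2.23% and 5.51% (adjusted p = 0.143, Fisher's exact test). Within the gene, a run of 31 CpGs from 347 to 630 bases after the start stood at 2.97% in WT and 3.97% in Fbxl10 T/T. Here a run is a chain of at least 3 CpGs with at least 10 reads in both libraries and gaps of at most 60 bases, described without a test. Its most methylated CpG in Fbxl10 T/T, 438 bases after the start, stood at 33.9% there and at 35.9% in WT. No CpG of this run passed the single-CpG test. The nearest run before the Hoxa5 start lay at -3938 to -3656 bases from it, inside Hoxa6. The DNA just before Hoxa5 was therefore not read by runs, as it was for Hoxa6 and Hoxa11.

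Hoxa6 was higher on both sides of its start. Its window, chr6:52158001-52159000 with 24 CpGs, rose from 14.2% of 1219 reads in WT to 52.5% of 915 reads in Fbxl10 T/T, a difference of 38.3 points (34.4 to 42.0, adjusted p = 1.74e-80, Fisher's exact test, Benjamini-Hochberg). The CpGs at -191 to -135 bases from the start (minus means before it), those in capitals in the Hoxa6 sequence, ranged from 10% to 70.8% in Fbxl10 T/T, and 7 of the 9 passed the single-CpG test. A further run, at -269 to -254 bases, stood at 13.5% in WT and 47.1% in Fbxl10 T/T, and all 4 of its CpGs passed. Inside the gene, from 147 to 429 bases after the start, the levels were 19.7% and 53.0%, and 6 of 11 CpGs passed. The part inside the gene was thus already partly methylated in WT, and the nearest upstream run was not.

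Hoxa9, a regulator of blood progenitors, had no tested window over its start, and the nearest lay 369 bases away inside the gene, at chr6:52176001-52177000 with 17 CpGs. It rose from 6.21% of 1256 reads to 67.6% of 738 reads, by 61.4 points (57.6 to 64.9, adjusted p = 1.46e-192, Fisher's exact test, Benjamini-Hochberg). Its 12 CpGs from 1072 to 1144 bases after the start stood at 7.88% in WT and 53.5 to 91.6% in Fbxl10 T/T, and all 12 passed the single-CpG test. The window beyond it, chr6:52175001-52176000, stood at 2.80% in WT and 64.5% in Fbxl10 T/T. This placement rests on 22 spelled bases, the fewest of the 5 members.

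Hoxa11, which patterns the forelimb and the uterus, shared the window chr6:52195001-52196000 with the start of its antisense transcript Hoxa11os. The window, with 20 CpGs, rose from 3.15% of 984 reads to 70.3% of 569 reads, by 67.1 points (63.1 to 70.9, adjusted p = 2.06e-188, Fisher's exact test, Benjamini-Hochberg), and was among the 5 largest differences in the cluster. A run of 11 CpGs, 556 to 654 bases into Hoxa11 and across the Hoxa11os start, stood at 2.43% and 72.1%, and all 11 passed the single-CpG test. On the other side, at -288 to -266 bases from the Hoxa11 start, 4 CpGs stood at 1.56% and 56.3%, and 3 of the 4 passed. Farther into Hoxa11, from 1127 to 1212 bases, 4 CpGs stood at 44.0% in WT and 62.3% in Fbxl10 T/T, and 0 of the 4 passed. Both the head of Hoxa11os and the DNA before Hoxa11 therefore held high levels in Fbxl10 T/T.

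Hoxa13 was divided within a single window. Its window, chr6:52210001-52211000 with 38 CpGs, stood at 0.553% of 2170 reads in WT and 12.7% of 1525 reads in Fbxl10 T/T, and the difference of 12.1 points (10.5 to 13.9) lay under the threshold of 20 points, with an adjusted p of 7.38e-61 (Fisher's exact test, Benjamini-Hochberg). A run of 6 CpGs from 738 to 825 bases into the gene stood at 3.02% in WT and 63.5% in Fbxl10 T/T, and all 6 passed the single-CpG test. Nearer the start the levels in Fbxl10 T/T were low: 6.60% from 485 to 503 bases, 4% from 399 to 420 bases, and 0.719% for the 10 CpGs at -70 to 19 bases. In WT the last 3 stood at 0, 0 and 0.251%. From the start to the end of the region, 11 CpGs stood at 0.177% of 565 reads in WT and 0 of 405 reads in Fbxl10 T/T.

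**Figure D3:**
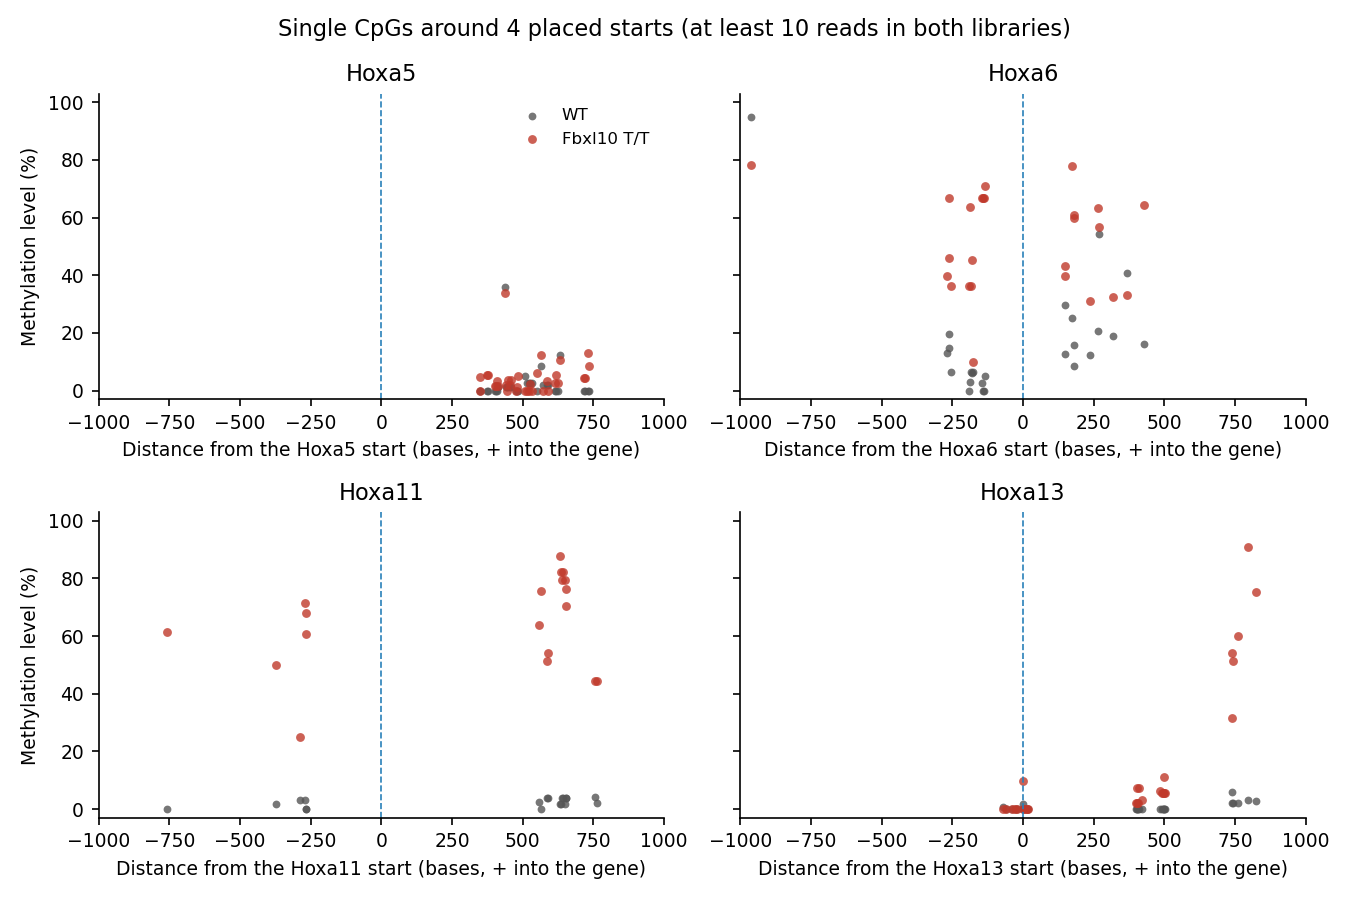
Methylation level (%) of single CpGs with at least 10 reads in both libraries against the distance in bases from 4 placed starts (dashed lines, positive into the gene), WT in grey and Fbxl10 T/T in red. Red and grey points overlap near 0 after the Hoxa5 start, the red points lie mostly above the grey ones on both sides of Hoxa6 and Hoxa11, and at Hoxa13 the red points are near 0 at the start and between 31.4 and 90.9% from 738 bases on.

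By interval, the level in Fbxl10 T/T was highest between the starts of Hoxa9 and Hoxa11. This interval, which holds Hoxa10 in the RefSeq order, stood at 7.71% in WT and 64.1% in Fbxl10 T/T, and 6 of its 7 tested windows were higher. In the RefSeq order, the interval from Hoxa6 to Hoxa9 holds the starts of Hoxa7 and of the listed Hoxa3 transcript. Its levels were 7.13% and 50.6%, with 4 of 5 windows higher. Between Hoxa11 and Hoxa13 they were 9.10% and 44.8%, with 2 of 4 higher. Anterior levels in Fbxl10 T/T were lower over summed reads, and low and high windows stood side by side there: 28.4% before 5730596B20Rik, on the side of Hoxa2 (2 of 4 windows higher, WT 5.05%), and 30.9% from there to Hoxa5, the interval of Hoxa4 (4 of 6 higher, WT 4.13%). The short interval from Hoxa5 to Hoxa6 had 1 tested window, which was higher. It is the Hoxa6 window given above, which spans the Hoxa6 start, since windows were assigned to intervals by their midpoint. Thus, over summed reads, the interval from Hoxa9 to Hoxa11 had the highest level. Windows that were not called lay on the anterior side, at the Hoxa13 end and in the middle. In the middle, chr6:52161001-52162000 stood at 0 of 73 reads and chr6:52190001-52191000 at 1.09% in Fbxl10 T/T. Such sums weigh windows by reads: chr6:52125001-52126000 gave 1045 of the 2128 Fbxl10 T/T reads before 5730596B20Rik. From there to Hoxa5, chr6:52141001-52142000 gave 2904 of 5150. The part of depth in the differences between intervals was not tested.

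The 5 largest differences were 77.6 points at chr6:52180001-52181000, 75.5 points at chr6:52184001-52185000, 68.7 points at chr6:52114001-52115000, 67.7 points at chr6:52183001-52184000 and the 67.1 points of the Hoxa11 window. Of these, 3 lay wholly between the starts of Hoxa9 and Hoxa11. The Hoxa11 window spans the Hoxa11 start and was counted in that interval by its midpoint. The one at chr6:52114001-52115000, on the Hoxa2 side, stood at 6.26% in WT and 74.9% in Fbxl10 T/T. The highest level of any window was 83.1% of 255 reads, at chr6:52180001-52181000, against 5.54% of 361 reads in WT. The smallest difference called was 20.5 points at chr6:52174001-52175000, which was already at 52.7% of 110 reads in WT and stood at 73.3% of 86 reads in Fbxl10 T/T (adjusted p = 0.0119, Fisher's exact test, Benjamini-Hochberg). That window was the only one of the 27 above 50% in WT.

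The 5 smallest differences were -2.78 points at chr6:52161001-52162000, -1.01 points at chr6:52190001-52191000, 0.483 points at chr6:52125001-52126000, and the 1.17 and 3.28 points of the 2 Hoxa5 windows. At chr6:52190001-52191000, between Hoxa9 and Hoxa11, the level was 2.10% of 523 reads in WT and 1.09% of 458 reads in Fbxl10 T/T, a low window inside the most methylated interval. At chr6:52125001-52126000, 31 CpGs stood at 2.29% of 1440 reads and 2.78% of 1045 reads. The window next to it, chr6:52126001-52127000, stood at 3.35% and 10.1%, and the following one, which holds the start of 5730596B20Rik, a lncRNA gene beside Hoxa3, rose from 4.11% of 292 reads to 65.7% of 172 reads. These 3 neighbours passed from low to high within 3 kb. The remaining window that was not called, chr6:52209001-52210000, stood at 13.5% in WT and 30.1% in Fbxl10 T/T.

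Levels changed over short distances in other places too. The window chr6:52141001-52142000, with the most CpGs (69), rose from 1.99% of 4312 reads to 39.3% of 2904 reads. Inside it, a run of 24 CpGs stood at 4.11% in WT and 62.8% in Fbxl10 T/T, the next of 20 CpGs at 1.27% and 44.1%, and the last of 10 CpGs at 0.624% and 9.06%. The single-CpG test called 20 of the 24, 18 of the 20 and 0 of the 10. A middling window level here was a sum of high, middling and low runs.

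Single CpGs, tested by Fisher's exact test at 10 reads or more in both libraries and called at an adjusted p under 0.05 and at least 25 points, showed how the levels were spread. Of 353 Hoxa CpGs, 217 (61.5%) were higher in Fbxl10 T/T and 0 were lower, against 16.5% higher and 4.35% lower among all 368305 CpGs tested. In WT 286 of the 353 were below 10%, and 98 were below 10% in both libraries. In Fbxl10 T/T 196 stood at 50% or more, 42 at 30 to 50% and 17 at 10 to 30%, and 8 reached 90%. Most CpGs were thus either low or at 50% and above in Fbxl10 T/T, and nearly full methylation was rare.

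The runs were divided into low and high. Of 37 runs, which together held 317 CpGs, 29 were below 10% in WT. In Fbxl10 T/T 10 were below 10%, 26 lay at 40% or more and 1 lay in between, at 13.1%. The 26 ranged from 44.1 to 85.5%, and the SD over the CpGs of such a run had a median of 10.3 points. The 10 low runs included those near the starts of Hoxa5 and Hoxa13 and that of the window at chr6:52190001-52191000. They also included those at -1553 to -1082 bases from the 5730596B20Rik start. Over the 27 windows, the difference from WT had a Pearson r of -0.0944 and a Spearman rho of -0.0153 with the number of CpGs, an r of -0.120 and a rho of 0.0140 with the reads in Fbxl10 T/T, and an r of 0.0168 and a rho of 0.343 with the WT level. These are descriptions over windows of the same 2 libraries.

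At CpGs outside CCGG, no Hoxa window that could be tested in Ring1B -/-, Eed -/- or Ezh2 -/- cells was called against WT. In Ring1B -/- 9 windows were tested and 0 were called higher or lower (Fisher's exact test, Benjamini-Hochberg), where 1.30% of all 8663 windows were higher and 0.554% lower. In Eed -/- 15 windows were tested and 0 called in either direction, where 0.352% of 9091 were higher and 0.671% lower. In Ezh2 -/- 7 were tested and 0 called, where 0.211% of 8513 were higher and 0.787% lower. Differences from WT ran from -9.71 to 17.1 points in Ring1B -/-, from -12.4 to 9.56 in Eed -/- and from -10.8 to 6.13 in Ezh2 -/-. A looser rule took an unadjusted p under 0.05 (Fisher's exact test) with no threshold on the difference. By this rule 2 windows were higher and 1 lower in Ring1B -/-, and 1 higher and 2 lower in Eed -/-. In Ezh2 -/- 0 were higher and 1 lower. The share of all windows that pass the looser rule was not computed, so these counts are not read as a result. For the main rule, the shares called in the genome were low. Against such shares, a count of 0 called in so few windows is not a result about the cluster.

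Over the whole region, the level was 5.90% in Ring1B -/- against 6.20% in WT at the same CpGs, a difference of -0.298 points (interval -1.72 to 1.49, p = 0.774, Fisher's exact test). In Eed -/- it was 5.43% against 6.53%, a difference of -1.10 points (-2.28 to 0.323, p = 0.126, Fisher's exact test). In Ezh2 -/- it was 9.16% against 7.07%, a difference of 2.09 points (-0.0976 to 4.83, p = 0.0749, Fisher's exact test). None of these 3 intervals reached the 35.7 points seen in Fbxl10 T/T. With CpGs inside CCGG kept, the differences became 3.26, 2.33 and 6.42 points, so that those of Ring1B -/- and Eed -/- changed direction. At the 115 CpGs that all 5 libraries covered, Fbxl10 T/T stood at 42.8% and WT at 6.13%, while Ezh2 -/- stood at 8.39%, Eed -/- at 5.27% and Ring1B -/- at 4.69%. At non-CpG cytosines of the region, the share showing C was 0.499% for WT and 0.576% for Fbxl10 T/T. It was 1.72% for Ezh2 -/-, 2.81% for Eed -/- and 3.19% for Ring1B -/-. This share can hold both unconverted DNA and methylated non-CpG cytosines, which were not separated here. The part of unconverted DNA in the low levels of the 3 mutants was not tested.

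At windows that were higher in Fbxl10 T/T, 22 values from the Polycomb mutants could be read, and they ran from 0 to 27.4% with a median of 4.84%. For 19 of the 22 the interval of the difference from WT lay wholly under 20 points, and for all Hoxa windows this held for 28 of 31 values. The share of all windows in the genome for which this holds was not computed, so these counts are not read as a result. At the Hoxa6 window, the level was 3.33% of 30 reads in Ring1B -/-, 4.92% of 61 reads in Eed -/- and 20% of 30 reads in Ezh2 -/-, with wide intervals that reached 16.7, 13.5 and 37.3%. Beside Hoxa9 it was 0 of 52 reads, 5.05% of 99 reads and 9.68% of 31 reads, and at Hoxa13 it was 0 of 78 reads, 0.952% of 105 reads and 0 of 30 reads. A count of 0 in 30 reads bounds the level loosely, since by the same limit of 3 counts it allows up to 10%. The Hoxa5 window was tested only in Eed -/-, at 2.94% of 34 reads, and the Hoxa11 window in none of the 3.

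The window chr6:52203001-52204000, between Hoxa11 and Hoxa13, stood out among these values. It was at 27.4% of 62 reads in Ring1B -/- (17.9 to 39.6) against 10.3% in WT at the same CpGs, a difference of 17.1 points (7.42 to 29.4, adjusted p = 0.00363, Fisher's exact test, Benjamini-Hochberg) that lay under the threshold of 20 points. In Eed -/- the same window was at 4.40% against 16.8%, a difference of -12.4 points (-15.8 to -5.73, adjusted p = 0.0123, Fisher's exact test). In Ezh2 -/- it was at 6.45% against 17.3%, and in Fbxl10 T/T at 73.3% against 16.1%. The WT values differ because each comparison uses the CpGs that both its libraries covered. At chr6:52184001-52185000 Eed -/- stood at 14.3% against 4.73% in WT (adjusted p = 0.0370, Fisher's exact test). At chr6:52141001-52142000 Ring1B -/- stood at 5.43% against 2.02% in WT (adjusted p = 0.0474, Fisher's exact test). Both differences lay under 20 points.

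**Figure D4:**
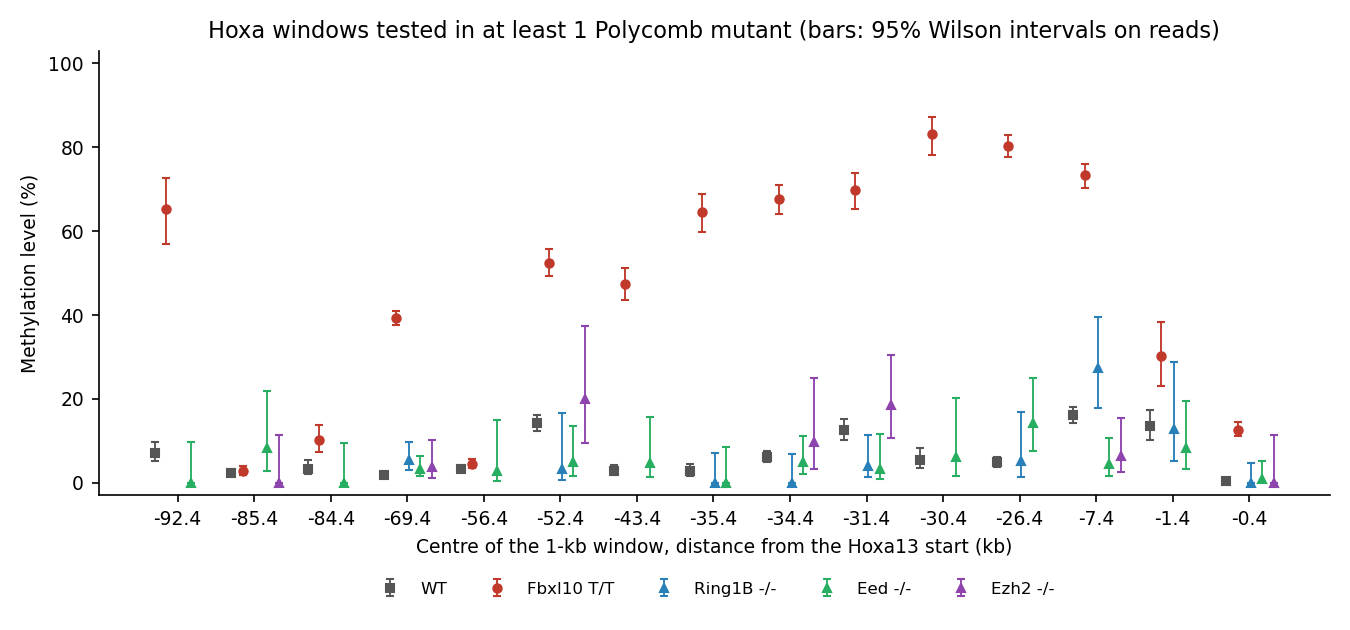
Methylation level (%) in the 15 Hoxa windows tested in at least 1 Polycomb mutant, placed in order by the distance of their centre from the Hoxa13 start in kb (evenly spaced), with 95% Wilson intervals on reads as bars. WT and Fbxl10 T/T are shown at the CpGs they share, and the mutants at the CpGs they share with WT. Fbxl10 T/T lies above every Polycomb mutant drawn, except at chr6:52125001-52126000. There Eed -/- stood at 8.33% of 36 reads and Fbxl10 T/T at 2.78%.

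Set against the Polycomb mutants directly, the Fbxl10 T/T library was higher by the same test and threshold. Against Ring1B -/- 7 of 9 Hoxa windows were higher and 0 lower, where 20.8% of 8651 windows in the genome were higher. Against Eed -/- 11 of 15 were higher and 0 lower, where 22.1% of 9068 were higher. Against Ezh2 -/- 5 of 7 were higher and 0 lower, where 21.7% of 8486 were higher. The share of lower windows in the genome was not computed for these comparisons, so the counts of 0 lower are not read as a result. Over the whole region, Fbxl10 T/T stood at 44.1% against 5.59% in Ring1B -/-, at 42.6% against 5.43% in Eed -/- and at 41.6% against 9.16% in Ezh2 -/-. The differences of 38.5, 37.2 and 32.4 points had p-values of 2.46e-137, 2.31e-187 and 2.86e-61 (Fisher's exact test on the reads of the 2 libraries). All 3 comparisons share the Fbxl10 T/T library, and the strain, passage and feeder labels of its cells are lacking for the mutants.

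Outside the cluster on the posterior side, 3 windows within 102 kb could be tested and all 3 were higher in Fbxl10 T/T. They were chr6:52241001-52242000 (17.3% in WT, 64.3% in Fbxl10 T/T), chr6:52264001-52265000 (5.43% and 62.1%) and chr6:52266001-52267000 (11.4% and 74.2%). The second holds the start of Evx1os, the antisense transcript of the homeobox gene Evx1 that lies next to the cluster. On the anterior side 1 window was tested, chr6:52108001-52109000, at 1.67% in WT and 1.81% in Fbxl10 T/T. At the start of Skap2, a gene for an adaptor protein farther out on that side, the levels were 1.26% and 0.488%. In the Hoxb, Hoxc and Hoxd clusters, 9 of the 13 genes with a promoter sequence were placed, and the window at or nearest to the start was higher in 8 of the 9, where 25.5% of all windows were. Of these 9, 7 lie in the Hoxd cluster, and Hoxb1 and Hoxc4 are the only ones of theirs, each with a window beside its start. The exception was Hoxd3, at 2.22% in WT and 8.89% in Fbxl10 T/T.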

How the data were processed

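The submitters' processing notes name BSMAP 2.74 and the mouse build mm9, and trimming, duplicate removal and depth filters are not given in the sources used here. Each deposited table lists cytosines, and per the file headers it gives raw counts of reads showing C and of reads showing C or T, expected counts of the latter after the authors' correction for C-to-T variants, and the fraction formed from them. CpGs are listed on the plus strand, with both strands summed before deposit.

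Levels were computed here from the raw counts at CpGs outside CCGG, which the MspI cut and end repair can affect. Windows of 1 kb were tested genome-wide on 19 autosomes and the X chromosome with Fisher's exact test and Benjamini-Hochberg adjustment, in 7 comparisons with 1 library per genotype, after the procedure had been tested on simulated data. Intervals are Wilson intervals (95%), and the interval of a difference combines them. The expected counts served as an alternative denominator. RefSeq promoters of build GRCm38.p6 (250 bases before to 50 after the start) were placed on mm9 where at least 20 spelled bases matched with 0 mismatches at exactly 1 place, and no coordinate was converted between builds. Values are given in full for the window at each placed member start (or the nearest tested one within 2 kb), and for the 5 largest and 5 smallest differences. The members, lists and tests were chosen with earlier results of these data known. The runs of CpGs, the stretches printed and other windows named were chosen after their values were seen. Python 3.11.15, pandas 2.3.3, numpy 2.4.6, scipy 1.17.1 and matplotlib 3.10.9 were used.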

Additional observations from a re-analysis of the deposited data

Results flagged for a closer look

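CpGs inside CCGG were kept out of the comparisons, and in the Hoxa region they showed higher levels in each mutant than in WT at the same CpGs. In Fbxl10 T/T they stood at 56.6% against 27.1% in WT, over 222 CpGs. In Ring1B -/- they stood at 37.6% against 25.8%, in Eed -/- at 34.4% against 26.6%, and in Ezh2 -/- at 41.2% against 26.3%. The 3 Polycomb mutants thus stood 7.77 to 14.9 points above WT inside CCGG, while outside CCGG the intervals of their differences from WT all held 0. Reads at these CpGs begin or end at the cut site, and the part of this in the difference was not tested.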

How the results depend on the processing

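No paired analysis was possible because each genotype has 1 library and the labels carry no replicate numbers. Single Hoxa windows outside the deep WT and Fbxl10 T/T libraries rest on few reads, and with at least 10 reads per CpG most windows of the Polycomb mutants could not be tested.

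The rise of the region in Fbxl10 T/T against WT ran from 33.7 to 36.7 points over all settings. With CCGG kept, 1 window was lower. Windows higher numbered 7 of 10 at CpGs covered in all 5 libraries and 11 of 14 at 10 or more CpGs per window. With CCGG kept, the regional difference from WT became 3.26 points in Ring1B -/- (p = 0.00103, Fisher's exact test), with 1 window higher, and 2.33 points in Eed -/- (p = 0.00393, Fisher's exact test), with 1 window lower. In Ezh2 -/- it became 6.42 points (p = 6.41e-07, Fisher's exact test), against 2.09 points without those CpGs. All 3 lie under the threshold of 20 points. Over all settings it ran from -1.44 to 3.26 points in Ring1B -/-, from -2.56 to 2.33 in Eed -/- and from -2.21 to 6.42 in Ezh2 -/-. With a threshold of 10 points, 1 window was higher in Ring1B -/- and 1 lower in Eed -/-. In Ezh2 -/- the regional difference was -2.21 points at 10 reads per CpG (3 CpGs) and 0.250 points as a mean of CpG levels, and 1 window was higher with the grid moved by 500 bases. Fbxl10 T/T against Ring1B -/- gave 4 of 5 windows higher at 5 reads per CpG, 1 of 1 at 10 reads, 11 of 17 with CCGG kept (1 lower) and 2 of 3 at 60 reads per window, a setting added after the data were seen. Against Eed -/- it gave 6 of 7 at 5 reads, 1 of 1 at 10 reads, 7 of 8 at CpGs in all 5 libraries, 6 of 9 at 10 CpGs and 5 of 6 at 60 reads. Against Ezh2 -/- it gave 3 of 3 at 5 reads, 3 of 3 at CpGs in all 5 libraries and 2 of 2 at 60 reads. Fewer windows could be tested in the stricter settings; the cause of the other shifts was not tested. Among named windows, chr6:52190001-52191000 became 0.390 points with CCGG kept and 1.19 points as a mean of CpG levels, chr6:52125001-52126000 became -0.527 points as such a mean, and the Hoxa13 window passed at a threshold of 10 points (12.1 points). The other 124 values of named windows kept their direction and their side of the threshold. The other 238 regional differences and counts did too, where a count is held to within 1.5 times and a regional difference to its direction and to passing both 20 points and a p under 0.05, so small regional differences could move far within it. Every count of lower windows, and every count for a Polycomb mutant against WT, was 0 in the main setting. Such counts were held by staying at 0, and over few windows they had little room to move.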
